A study of Mus musculus with 20 samples.

Results

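Klf3, Klf6, Klf7, Klf9, Klf10, Klf11, Klf13 and Klf15 are 8 genes of the Krüppel-like factor (KLF) family that lie outside the naive pluripotency circuit of Klf2, Klf4 and Klf5. They make up 8 of the 55304 gene symbols measured in 20 RNA-seq libraries of mouse cells. The 8 were chosen by symbol, with earlier results of these data known. The embryonic stem cell (ESC) libraries came from the KY1.1 line and received 500 ng/mL doxycycline (dox) for 6 hours or none. The iPSM libraries came from presomitic mesoderm colonies differentiated from E14TG2a ESC that carry a luciferase reporter under the Hes7 promoter, and received 1000 ng/mL dox for 2 hours or none. In each cell type a tetO promoter drove Clock and Bmal1 in 2 clones (Clock/Bmal1: clones 1 and 7 in ESC, clones 12 and 20 in iPSM). In 2 further clones it drove Clock with the Bmal1 form labelled DN (ClockBmal1DN: clones 5 and 6 in ESC, clones 7 and 19 in iPSM), and a further line is labelled control. Every line gave 1 untreated and 1 treated library, so a group of clones has n = 2 and the control line n = 1. Clones are separate lines of 1 origin, and p-values measure the spread between them.

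KLF proteins bind GC-rich DNA and CACCC elements through zinc fingers at the carboxyl end and differ in the cofactors that the rest of the protein recruits. Klf3 binds the corepressor CtBP. Klf9, Klf10, Klf11 and Klf13 bind the corepressor Sin3a, while Klf6 and Klf7 act mostly as activators. Klf10 and Klf11 were first described as early genes of TGF-beta signalling, Klf9 and Klf15 respond to glucocorticoids, and Klf10 and Klf15 are known for rhythmic expression in tissues with a circadian clock, in which CLOCK and BMAL1 act as a pair on E-boxes such as CACGTG.

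Library totals ran from 38.2 M to 57.3 M gene-body counts. The transgenes were detected by the counts of their own genes, to which endogenous and transgene reads both contribute. In treated Clock/Bmal1 clones Arntl (the symbol of Bmal1) lay at 2429 and 4551 CPM (counts scaled to library size) in ESC and at 2983 and 4308 CPM in iPSM. Treated ClockBmal1DN clones reached 1747 and 4493 CPM in ESC, but only 832 CPM (clone 7) and 143 CPM (clone 19) in iPSM, so induction in iPSM was unequal between the 2 genotypes. Nr1d1 and Dbp, direct targets of the pair, rose in Clock/Bmal1 clones of both cell types (log2 fold changes of 3.44 and 3.76 in ESC, 4.43 and 3.10 in iPSM). Summed over 8 ESC markers such as Pou5f1 and Nanog, levels were 2099 to 3407 CPM in ESC and 256 to 473 CPM in iPSM. For 12 presomitic mesoderm markers they were 37.1 to 160 CPM and 880 to 1653 CPM, with Msgn1 at 0 counts in 7 of the 10 ESC libraries. Reads fell over 69.4% of features in the untreated iPSM control library and over 43.8% to 54.0% in the others.

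Promoter sequences of the genes that the results turn on are shown first, since the induced proteins bind E-boxes. The windows reach from 250 bases before to 50 bases after the RefSeq start (GRCm38.p6, the assembly of mm10), each is written 5′ to 3′ on the strand of its gene, and 7 of the 8 genes matched an entry (all but Klf10). Capitals mark CACGTG, which reads the same on both strands.

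Klf15 (chr6:90462326-90462625, plus strand): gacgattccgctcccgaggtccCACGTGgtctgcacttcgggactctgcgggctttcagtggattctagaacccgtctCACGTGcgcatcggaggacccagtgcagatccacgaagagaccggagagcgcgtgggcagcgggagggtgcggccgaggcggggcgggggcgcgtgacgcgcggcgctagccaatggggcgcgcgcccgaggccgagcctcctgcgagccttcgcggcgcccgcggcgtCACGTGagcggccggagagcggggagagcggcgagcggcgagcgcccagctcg

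Klf11 (chr12:24651121-24651420, plus strand): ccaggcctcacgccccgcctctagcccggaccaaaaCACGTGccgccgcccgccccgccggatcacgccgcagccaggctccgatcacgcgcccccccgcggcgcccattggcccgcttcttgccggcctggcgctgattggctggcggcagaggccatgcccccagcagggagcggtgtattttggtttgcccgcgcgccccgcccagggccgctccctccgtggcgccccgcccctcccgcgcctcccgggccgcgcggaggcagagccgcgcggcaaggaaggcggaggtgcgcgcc

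Klf6 (chr13:5861239-5861538, plus strand): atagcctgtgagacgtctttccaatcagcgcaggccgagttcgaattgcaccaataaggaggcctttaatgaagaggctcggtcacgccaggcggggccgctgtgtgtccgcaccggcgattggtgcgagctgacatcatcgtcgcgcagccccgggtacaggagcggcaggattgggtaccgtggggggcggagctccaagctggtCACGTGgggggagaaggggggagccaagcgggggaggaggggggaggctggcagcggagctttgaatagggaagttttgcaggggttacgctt

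Klf9 (chr19:23140976-23141275, plus strand): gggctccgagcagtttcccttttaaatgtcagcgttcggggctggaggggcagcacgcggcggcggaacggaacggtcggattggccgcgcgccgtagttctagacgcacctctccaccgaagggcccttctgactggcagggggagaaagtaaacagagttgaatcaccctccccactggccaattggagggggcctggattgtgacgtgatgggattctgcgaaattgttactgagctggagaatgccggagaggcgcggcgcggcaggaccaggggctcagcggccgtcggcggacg

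The Klf15 window held 3 copies of CACGTG, which begin 228, 172 and 3 bases before the start. Klf11 held 1 copy (214 bases before) and Klf6 held 1 (43 bases before), while Klf3, Klf7, Klf9 and Klf13 held none. Of 32851 mouse promoter windows of this length, 7.15% held at least 1 copy and 0.0883% (29 windows) held 3 or more. The related hexamer CACGTT, searched on both strands, was in none of the 7 windows and in 4.68% of all. Motifs of the KLF proteins themselves were common: GGGCGG, searched on both strands, was in 35.7% of all windows and in 6 of the 7, with 6 copies at Klf3 and 4 at Klf11. CACCC was in 57.5% of all and in 5 of the 7. The 7 windows held from 58.3% GC (Klf7) to 77.7% GC (Klf11), with 73.3% at Klf15. The median over all windows was 52.7%, so the shares over all windows are not matched for GC. These matches describe letters only; where the counted transcript starts at another site, by 133 bases at Klf3, 102 at Klf7, 97 at Klf11 and 7 at Klf6, the window is not centred on it.

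All 8 genes were expressed in both cell types, and each passed the filter on low counts in every fit. Counts per library ran from 166 to 1734 for Klf15, the lowest of the 8, and from 786 to 10582 for Klf9. On the scale of RPKM, which divides reads by gene-body length and library total, the medians of the 5 untreated ESC lines put Klf6 first (12.8), then Klf10 (8.24), Klf9 (6.93), Klf3 (1.70), Klf11 (0.911), Klf15 (0.444), Klf13 (0.379) and Klf7 (0.254). Klf10 and Klf9 overlapped over the 5 lines, as did Klf15 and Klf13, and the other neighbours did not. In untreated iPSM the order was Klf6 (6.83), Klf10 (4.28), Klf11 (1.57), Klf3 (1.53), Klf9 (0.918), Klf13 (0.900), Klf15 (0.674) and Klf7 (0.328). There, neighbours were separate only between Klf10 and Klf11 and between Klf15 and Klf7. The gene body includes introns, which lowers the RPKM of long genes: exons make up 47.4% of the 8.9 kb Klf6 body and 8.3% of the 92.0 kb Klf7 body. Divided by mRNA length instead, Klf9 stood first in ESC and Klf10 in iPSM.

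**Figure D1:**
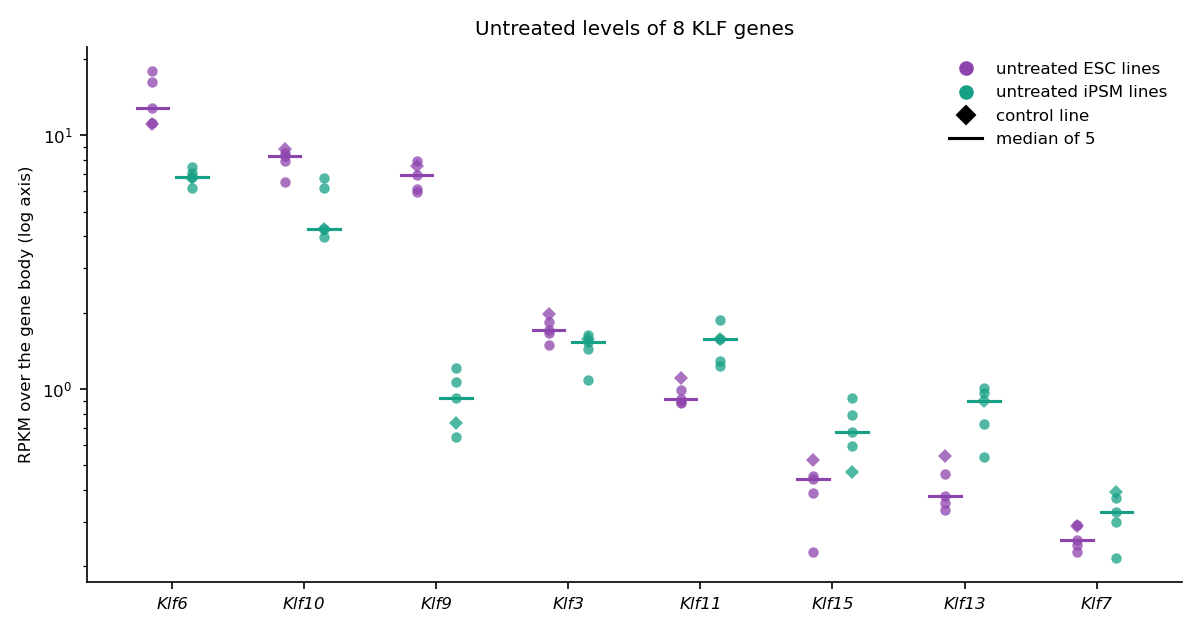
Untreated RPKM (log axis) of the 8 KLF genes in 5 ESC lines and 5 iPSM lines; circles are clones, diamonds the control line and bars medians. Klf9 falls from a median of 6.93 RPKM in ESC to 0.918 in iPSM with no overlap. Klf3, Klf7, Klf10, Klf13 and Klf15 overlap between the cell types.

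Untreated iPSM and ESC differed most at Klf9, and the direction depended on the gene. Between 4 iPSM clones and 4 ESC clones, 7 of the 8 genes passed, 4 lower and 3 higher in iPSM, in a comparison in which 60.0% of all genes tested passed (28.8% lower, 31.3% higher). The share of KLF genes that passed is thus read against a background in which most genes did. The median log2 difference of the 8 was −0.19, beside 0.05 over all genes tested. Cell type, parent line and culture go together in this comparison and cannot be told apart. In bulk libraries, moreover, fewer cells that express a gene and less RNA per cell cannot be told apart.

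Klf9 (chr19:23141226-23168134, plus strand) encodes a hormone-responsive repressor that limits proliferation in several tissues. Its untreated levels were 208, 183, 230 and 177 CPM in ESC clones 1, 7, 5 and 6, and 30.3, 17.6, 27.1 and 23.9 CPM in iPSM clones 12, 20, 7 and 19. Every iPSM clone lay below every ESC clone, as did the control line (17.2 against 222 CPM). The log2 difference was −3.01 ± 0.23 (SE; edgeR adjusted p = 3.74e-08), a level 8.07-fold lower in iPSM.

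Klf6 (chr13:5861482-5870394, plus strand), an activator known from injury and growth factor responses, was at 111, 175, 124 and 160 CPM in the same ESC clones. In iPSM it was at 51.3, 64.0, 57.5 and 64.2 CPM. The groups did not overlap, and Klf6 was lower in iPSM by a log2 difference of −1.27 ± 0.18 (edgeR adjusted p = 1.83e-05). Within ESC the 2 highest Klf6 levels, in clone 7 of Clock/Bmal1 and clone 6 of ClockBmal1DN, were in the untreated clones with the highest sums over 10 fibroblast feeder markers, 627 and 1048 CPM against 402 to 450 CPM in the other 3 untreated lines. Treated, clone 6 kept a Klf6 level of 150 CPM with a feeder sum of 405 CPM. The part of feeder RNA in the Klf6 level was not tested.

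Klf10 (chr15:38291463-38300706, minus strand) was lower in untreated iPSM at 58.3, 37.3, 37.2 and 55.1 CPM, against 81.6, 66.7, 82.5 and 86.9 CPM in ESC. Its log2 difference was −0.75 ± 0.18 (edgeR adjusted p = 0.00162). Klf3 (chr5:64803388-64832901, plus strand) was lower by −0.44 ± 0.12 on the log2 scale, with means of 40.2 ± 5.41 CPM in iPSM and 54.3 ± 4.05 CPM in ESC (SD, n = 4). In CPM, no iPSM clone reached the lowest ESC clone for either gene. In RPKM the clones overlapped for both. Klf10 was at 6.79 RPKM in iPSM clone 12 and at 6.54 RPKM in ESC clone 7. Klf3 was at 1.53 and 1.63 RPKM in iPSM clones 12 and 7, and at 1.49 RPKM in ESC clone 1. Klf3 overlaps C230096K16Rik on the same strand, whose median count of 196 compares with 2134 for Klf3.

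Higher in iPSM were Klf13, Klf15 and Klf11. Klf13 (chr7:63886351-63938915, minus strand), known as an activator of chemokine expression in T cells, averaged 40.7 ± 9.56 CPM in iPSM and 22.2 ± 3.50 CPM in ESC (SD, n = 4), a log2 difference of 0.88 ± 0.25. Klf15 (chr6:90462576-90475238, plus strand), a regulator of amino acid and glucose metabolism, averaged 9.11 ± 2.01 and 5.27 ± 1.45 CPM (SD, n = 4), a log2 difference of 0.79 ± 0.22. The clones did not overlap for these 2 genes or for Klf11. The untreated control line went the other way for Klf15 (5.21 CPM in iPSM, 7.26 CPM in ESC). For Klf13 the ESC control line (31.2 CPM) lay above iPSM clone 20 (28.8 CPM). Klf11 (chr12:24651274-24662789, plus strand) averaged 11.6 ± 0.759 CPM in ESC and 16.5 ± 2.78 CPM in iPSM (SD, n = 4), a log2 difference of 0.50 ± 0.17 with an edgeR adjusted p of 0.0198. That call was lost in 4 of 8 fits that left out 1 library (ESC clones 7 and 5, iPSM clones 12 and 19), with adjusted p up to 0.0941. Klf7 (chr1:64029447-64121491, minus strand), known for its role in sensory neurons, overlapped fully, at 25.7 ± 2.47 CPM in ESC and 26.8 ± 5.01 CPM in iPSM (SD, n = 4; edgeR adjusted p = 0.815).

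The main comparison was dox against untreated in the Clock/Bmal1 iPSM clones, which asks which KLF genes respond within 2 hours of induction. Klf15, Klf10 and Klf9 rose, by 3.32-fold, 3.29-fold and 2.53-fold. These are 3 of 8 genes higher, where 0.994% of all genes tested passed as higher and 0.0283% as lower. The 8 were chosen with earlier results of these data known, so neither this share nor their median tests the family. The other 5 did not pass, and their log2 differences ran from −0.69 (Klf6) to 0.95 (Klf11). The median of the 8 was 0.72, beside −0.02 over all genes tested. In the iPSM control line (n = 1), 5 of the 8 were higher with dox. The median log2 change of the 8 there was 0.23, beside −0.01 over all genes tested. The untreated library of that line is the one with reads over 69.4% of features. The part of the control line's change in the Clock/Bmal1 effects was not tested. The presomitic mesoderm sum went from 923 to 880 CPM in clone 12 and from 1321 to 1067 CPM in clone 20. The sum over the 10 feeder markers went from 297 to 205 CPM and from 276 to 253 CPM. Of these markers, 8 were lower in untreated iPSM than in ESC and 0 higher, where 60.0% of all genes passed. How much of their sum in iPSM is feeder RNA was not tested. The sum over 6 neural markers was low and went from 5.93 to 7.93 CPM and from 5.71 to 9.13 CPM, with a list median of 1.52, 3 genes at an unadjusted p under 0.05 and none passing in edgeR or DESeq2. The part of these markers in the KLF results was not tested.

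**Figure D2:**
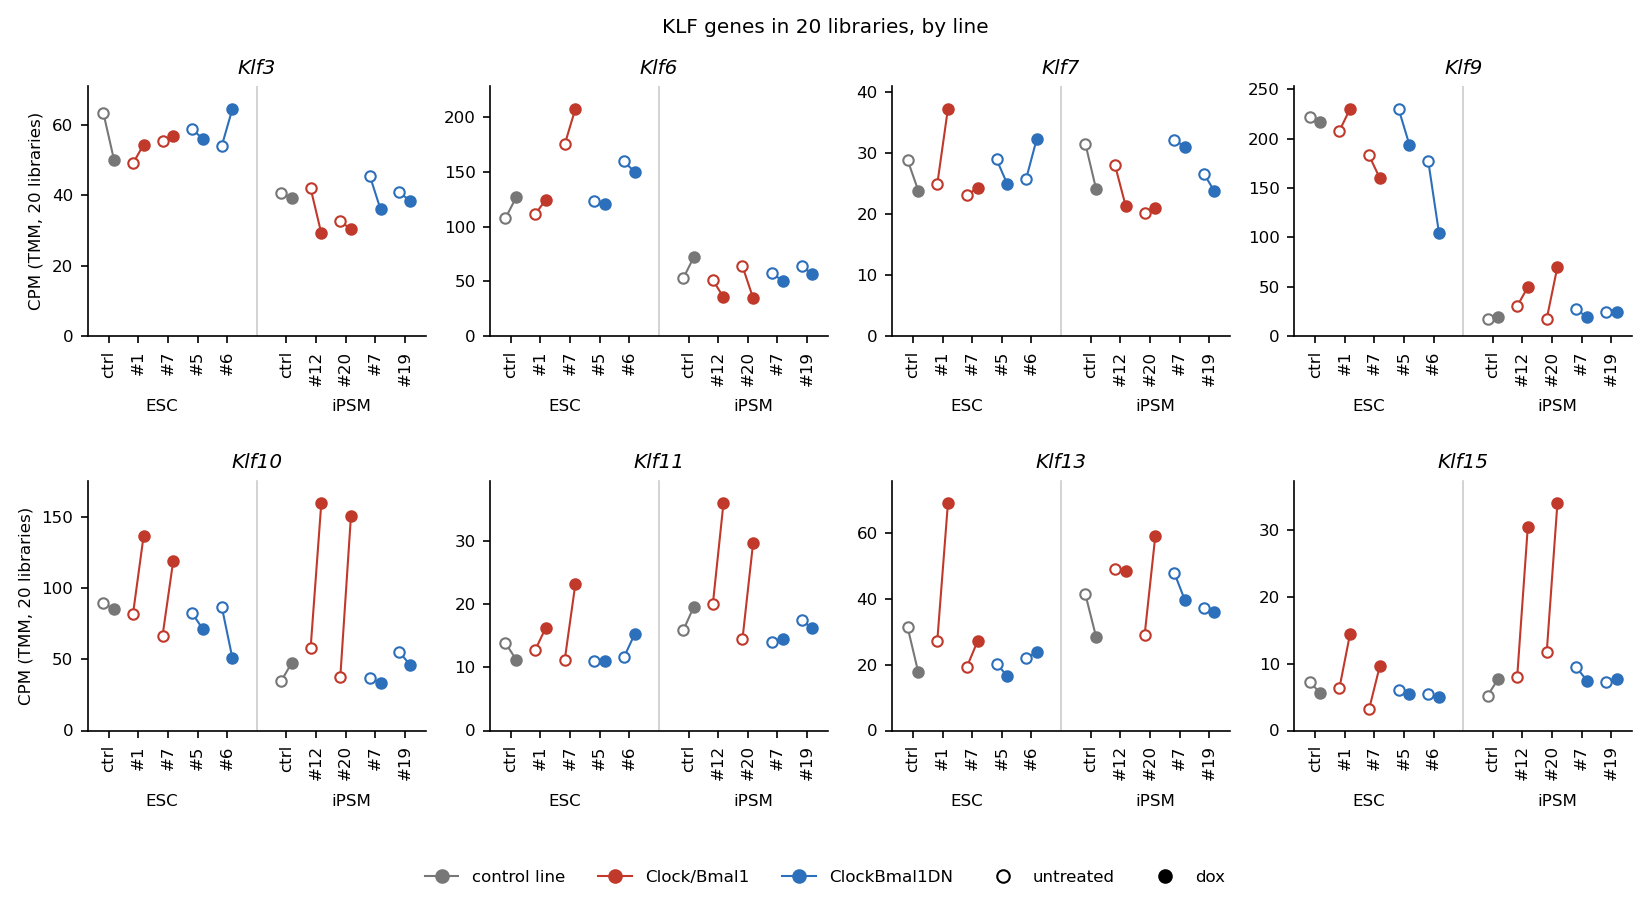
CPM of each KLF gene in all 20 libraries, 1 panel per gene; each line joins the untreated library (open) to the treated library (filled) of a clone or the control line (ctrl), with red for Clock/Bmal1, blue for ClockBmal1DN and grey for the control. Klf10 in Clock/Bmal1 iPSM goes from 58.3 to 160 CPM in clone 12 and from 37.3 to 150 CPM in clone 20, above all other iPSM libraries.

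Klf15 stood at 7.93 CPM without and 30.4 CPM with dox in clone 12, and at 11.8 and 34.0 CPM in clone 20. Both treated clones exceeded all other iPSM libraries, which lay between 5.21 and 11.8 CPM. The log2 fold change was 1.73 ± 0.22 (SE; edgeR adjusted p = 0.0028). It passed in all 4 fits that left out 1 library of the contrast, with adjusted p of at most 0.0373. Its promoter is the one with 3 copies of CACGTG shown above, and a link between these copies and the rise was not tested. Klf9 also passed and held no copy. Klf11 and Klf6 held 1 each and did not pass (edgeR adjusted p = 0.0515 and 0.0632). Both passed where each treated library was set against its own untreated one. Klf10 passed, but its promoter was not matched. The control line went from 5.21 to 7.69 CPM with dox. Its untreated level lay below all 4 untreated clones (7.27 to 11.8 CPM), and its treated level below both untreated Clock/Bmal1 clones.

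Klf10 levels were 58.3 and 160 CPM in clone 12 and 37.3 and 150 CPM in clone 20. The treated libraries agreed closely (155 ± 6.55 CPM, SD, n = 2) and lay above every other iPSM library, while the untreated ones differed by clone. Its log2 fold change of 1.72 ± 0.25 passed with an edgeR adjusted p of 0.0055, and passed again in all 4 fits with 1 library left out (adjusted p at most 0.0456). Without dox the ClockBmal1DN clones spanned 37.2 to 55.1 CPM, and the control line went from 34.5 to 47.5 CPM.

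Klf9 went from 30.3 to 49.5 CPM in clone 12 and from 17.6 to 70.0 CPM in clone 20. The direction was shared, but the size was 1.63-fold in clone 12 and 3.97-fold in clone 20. The fitted log2 fold change was 1.34 ± 0.26 (edgeR adjusted p = 0.0304). It was lost without the untreated library of clone 20 (1.00, adjusted p = 0.0565) and without its treated library (1.06, adjusted p = 0.381). Even after the rise, Klf9 in treated iPSM lay below all 10 ESC libraries, of which the lowest was at 105 CPM. The iPSM control line went from 17.2 to 19.2 CPM with dox.

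Klf11, the closest relative of Klf10, was at 20.0 and 36.0 CPM in clone 12 and at 14.4 and 29.7 CPM in clone 20. In the control line it was at 15.8 CPM without and 19.6 CPM with dox. Treated clones did not overlap with any other iPSM library, of which the highest was at 20.0 CPM. Its log2 difference of 0.95 ± 0.20 did not pass (edgeR adjusted p = 0.0515). Klf6 was at 51.3 and 35.4 CPM in clone 12 and at 64.0 and 34.8 CPM in clone 20, the 2 lowest levels of any library being the treated ones. In the control line Klf6 went the other way, from 52.7 to 72.3 CPM with dox. At −0.69 ± 0.15 in the Clock/Bmal1 clones, Klf6 did not pass either (edgeR adjusted p = 0.0632). With clone as a replicate block, which sets each treated library against its own untreated one, both passed: Klf11 at 0.97 (adjusted p = 0.0054) and Klf6 at −0.68 (adjusted p = 0.0387).

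Of the remaining genes, Klf13 and Klf7 did not move alike in the 2 clones, while Klf3 fell in both by unequal amounts. Klf13 was at 49.1 and 48.5 CPM in clone 12 but at 28.8 and 58.8 CPM in clone 20. In the control line Klf13 went from 41.3 to 28.5 CPM with dox. The Klf13 log2 difference in the Clock/Bmal1 clones was 0.48 ± 0.23 (edgeR adjusted p = 0.974). Without the untreated library of clone 12 it was 0.92, with an adjusted p of 0.0249, and Klf6 (−0.84) and Klf11 (1.21) passed there too, which brings the count to 6 genes. Klf3 was at 41.9 and 29.1 CPM in clone 12 and at 32.6 and 30.3 CPM in clone 20, and the 2 treated libraries were the lowest of the 10. Klf7 was at 28.1 and 21.4 CPM and at 20.1 and 21.1 CPM. Neither Klf3 (−0.30 ± 0.16) nor Klf7 (−0.16 ± 0.20) passed.

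**Figure D3:**
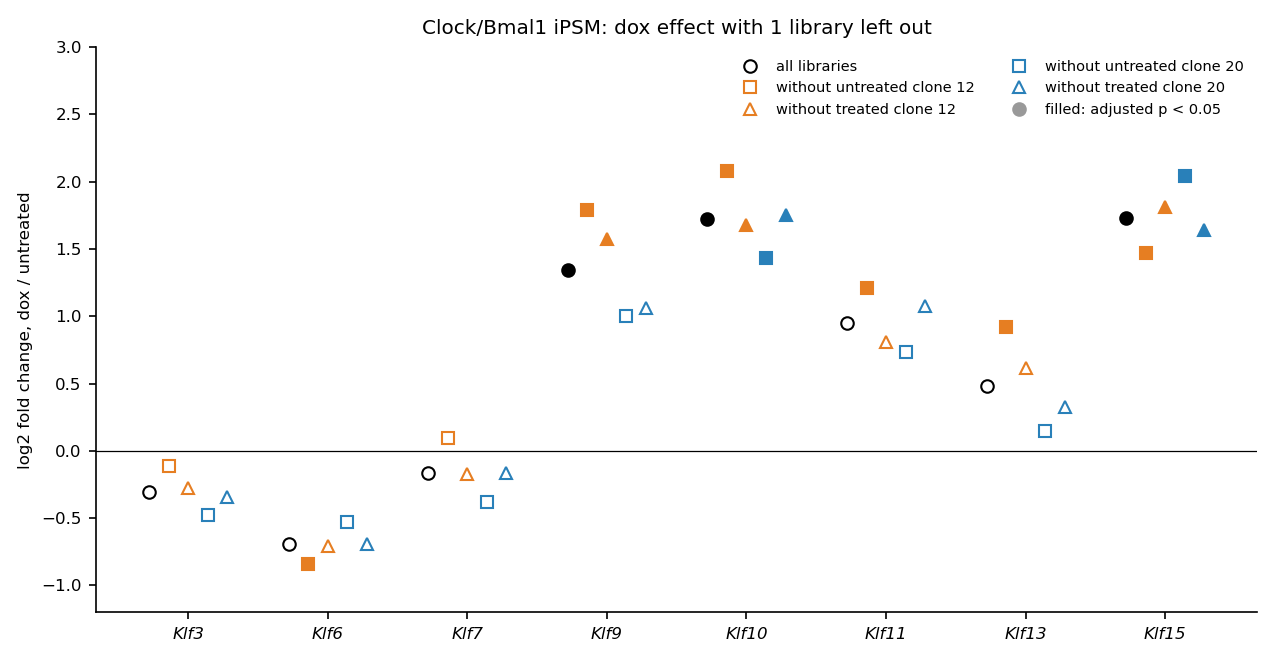
Log2 fold change with dox in Clock/Bmal1 iPSM for each KLF gene, with all libraries (circle) and with 1 of the 4 libraries left out (squares, untreated; triangles, treated; orange, clone 12; blue, clone 20); filled symbols have an edgeR adjusted p under 0.05. Klf10 and Klf15 are filled in every fit, and Klf9 is open in both fits without a library of clone 20.

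With ClockBmal1DN, none of the 8 genes passed in either cell type, where 0.00404% of all genes tested passed in iPSM and 0.00445% in ESC. Each of these shares is 1 gene, the induced Clock in iPSM and the induced Arntl in ESC. Falls of Nr1d1 (−1.68 ± 0.39) and Dbp (−2.25 ± 0.49) in ESC did not pass in edgeR. DESeq2 called 3 of the 4 genes Clock, Arntl, Nr1d1 and Dbp in ESC. It called none of the 8 KLF genes in either cell type. At an unadjusted p under 0.05 there was no gene of the 8 in iPSM and 1 in ESC (Klf10). In iPSM all 8 log2 differences were between −0.25 (Klf9) and −0.04 (Klf11). In ESC they were between −0.50 (Klf10) and 0.18 (Klf11), and Klf10 went from 82.5 to 71.3 CPM in clone 5 and from 86.9 to 50.7 CPM in clone 6. Klf9 was at 230 and 194 CPM in clone 5 and at 177 and 105 CPM in clone 6. Clone 6 also had the larger Arntl level of the 2, and its feeder marker sum went from 1048 to 405 CPM with dox (from 402 to 355 CPM in clone 5). Their part in these values was not tested.

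**Figure D4:**
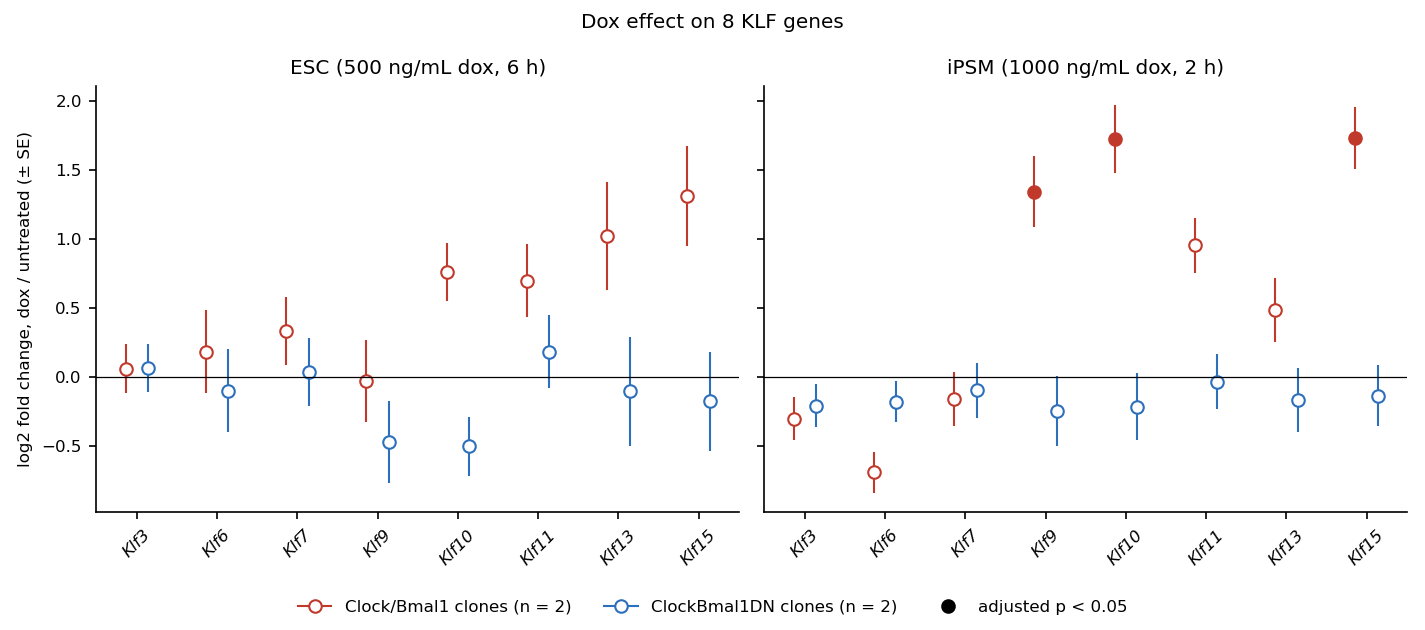
Fitted log2 fold change with dox (points, ± SE) of the 8 KLF genes in Clock/Bmal1 (red) and ClockBmal1DN (blue) clones of ESC (left) and iPSM (right); filled points have an edgeR adjusted p under 0.05. Only Klf9, Klf10 and Klf15 in Clock/Bmal1 iPSM are filled.

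The difference between the 2 dox effects was tested directly. In iPSM, Klf15 differed by 1.87 ± 0.31 on the log2 scale (edgeR adjusted p = 0.0359), and it was the only 1 of the 8 that passed, where 0.279% of all genes tested did. Klf10 differed by 1.94 ± 0.34 (adjusted p = 0.0511), Klf9 by 1.59 ± 0.36 (adjusted p = 0.185), Klf11 by 0.99 ± 0.28 and Klf6 by −0.51 ± 0.21. The Klf15 call held in 2 of 8 fits that left out 1 library, those without an untreated Clock/Bmal1 library, and was lost without either treated Clock/Bmal1 library or any of the 4 ClockBmal1DN libraries (adjusted p up to 0.297), and without the control line its adjusted p was 0.0518. With clone as a block, Klf15 (1.88, adjusted p = 0.0029) and Klf10 (1.96, adjusted p = 0.000724) both passed. Treated Clock lay at 1623 and 2262 CPM in Clock/Bmal1 and at 959 and 991 CPM in ClockBmal1DN iPSM, which together with the Arntl levels above means that transgene level and transgene type cannot be told apart here.

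In ESC the same difference was largest at Klf15 (1.49 ± 0.51, edgeR adjusted p = 0.861), Klf10 (1.26 ± 0.30, adjusted p = 0.383) and Klf13 (1.12 ± 0.56). None of the 8 passed, where 0.0579% of all genes tested did. At an unadjusted p under 0.05 there were 2 (Klf15 and Klf10), and DESeq2 called none.

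In Clock/Bmal1 ESC, no KLF gene passed after 6 hours of dox, where 0.423% of all genes tested passed (0.405% higher, 0.0178% lower). At an unadjusted p under 0.05 there were 4 (Klf10, Klf11, Klf13 and Klf15), and DESeq2 called 1 (Klf15, adjusted p = 0.0273). The median log2 difference of the 8 was 0.51, beside −0.01 over all genes tested. In the ESC control line (n = 1), 1 of the 8 was higher with dox and 7 were lower. The median log2 change of the 8 there was −0.29. The part of that line's change in the Clock/Bmal1 effects was not tested.

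Klf15 was at 6.37 and 14.5 CPM in clone 1 and at 3.17 and 9.58 CPM in clone 7. Both treated libraries lay above the other 8 ESC libraries, whose highest level was 7.26 CPM, and the log2 difference was 1.31 ± 0.36 (edgeR adjusted p = 0.296). Klf10 was at 81.6 and 137 CPM in clone 1 and at 66.7 and 119 CPM in clone 7, again above all other ESC libraries (at most 89.3 CPM), with a log2 difference of 0.76 ± 0.21 (edgeR adjusted p = 0.307). Klf11 was at 12.7 and 16.2 CPM and at 11.2 and 23.2 CPM (0.70 ± 0.26, edgeR adjusted p = 0.566), so that the 2 treated libraries were the highest of the 10 here as well.

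Klf13 was at 27.1 and 68.9 CPM in clone 1 and at 19.3 and 27.1 CPM in clone 7. Its treated clone 7 did not exceed the untreated control line (31.2 CPM), which was at 17.6 CPM with dox. The Klf13 log2 difference of 1.02 ± 0.39 did not pass (edgeR adjusted p = 0.583). Klf9, which rose in iPSM, was at 208 and 230 CPM in clone 1 and at 183 and 160 CPM in clone 7, with a log2 difference of −0.03 ± 0.30. Klf6 was at 111 and 125 CPM and at 175 and 208 CPM (0.18 ± 0.30), and neither gene separated treated from untreated clones. Klf7 (0.33 ± 0.25) and Klf3 (0.06 ± 0.18) did not pass. Marker lists were read beside these values. The sum over 8 ESC markers went from 3183 to 2099 CPM in clone 1 and from 2658 to 2605 CPM in clone 7, with a list median of −0.38 and 3 genes at an unadjusted p under 0.05. The immediate early sum went from 248 to 356 CPM and from 343 to 493 CPM, with a median of 0.29 and 3 of 12 at an unadjusted p under 0.05. The presomitic mesoderm sum went from 45 and 85 CPM to 125 and 160 CPM, but the list's median was −0.01 and 1 of 11 genes tested passed. That gene was Lfng, a Notch pathway glycosyltransferase, at 13.5 and 93.0 CPM in clone 1 and at 14.3 and 104.9 CPM in clone 7. The feeder sum went from 444 to 751 CPM and from 627 to 677 CPM, with a median of −0.01 and no gene passing in edgeR, in DESeq2 or at an unadjusted p under 0.05. Their part in the KLF values was not tested.

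Dose and hours differed between the cell types, so the 2 Clock/Bmal1 effects were compared with that limit. The effect in iPSM minus that in ESC was 1.32 ± 0.42 on the log2 scale for Klf9, 0.91 ± 0.35 for Klf10 and −0.93 ± 0.35 for Klf6. These 3 had an unadjusted p under 0.05, none of the 8 passed (edgeR adjusted p of 1.00 each), and DESeq2 called none. Of all genes tested, 0.0% passed this comparison in edgeR. For Klf15 the difference was 0.37 ± 0.44 and for Klf11 0.21 ± 0.34. The untreated Clock/Bmal1 and ClockBmal1DN clones were also compared: none of the 8 passed in ESC, where 0.00891% of all genes tested passed, or in iPSM, where 0.0% did. The iPSM background rests on 1 library: without the untreated library of clone 12, 734 genes passed as higher and 1056 as lower, none of them among the 8. No KLF gene had an unadjusted p under 0.05 in either, and DESeq2 called none.

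Related genes were read in the same fits. Among the other KLF genes, Klf16, a further repressor that binds Sin3a, rose in Clock/Bmal1 iPSM from 11 to 17.4 CPM in clone 12 and from 8.17 to 20.8 CPM in clone 20. Its log2 fold change was 1.02 ± 0.20 (edgeR adjusted p = 0.0402), and it was the only 1 of 8 tested that passed. No gene of that list passed without the treated library of clone 12, or without that of clone 20. The median of that list was 0.22, beside −0.02 over all genes. Of 8 tested genes of the SP family, which binds similar sites, Sp5, a Wnt target of the presomitic mesoderm, fell from 65.7 to 34.4 CPM in clone 12 and from 73.0 to 31.6 CPM in clone 20. At −1.05 ± 0.14 (edgeR adjusted p = 0.0030) it was the only 1 that passed, and the list's median was −0.03. No SP gene passed without the treated library of clone 20.

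None of 10 KLF cofactors (Ctbp1, Sin3a, Ep300 and others) passed in edgeR or DESeq2 in Clock/Bmal1 iPSM, or at an unadjusted p under 0.05, with a median log2 difference of 0.00. The 17 TGF-beta signalling genes had a median log2 difference of 0.17. Of 10 glucocorticoid-responsive genes none passed in edgeR, 2 had an unadjusted p under 0.05 and DESeq2 called 1, with a median of 0.17. In Clock/Bmal1 ESC no gene of these 5 lists passed in edgeR. At an unadjusted p under 0.05 there were 2 TGF-beta and 4 glucocorticoid-responsive genes, and DESeq2 called 2 of the latter.

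Klf6 and Klf10 are known to respond to growth factors, so 12 immediate early genes were read beside them. In Clock/Bmal1 iPSM, Junb (2.14 ± 0.16, edgeR adjusted p = 0.000106) and Atf3 (1.64 ± 0.21, edgeR adjusted p = 0.0029) rose and the other 10 did not pass, with Fos at −0.56, Egr1 at −0.77 and Myc at −1.35 (these genes were named after their values were seen). The median was −0.21, with 7 of 12 at an unadjusted p under 0.05 and 3 called by DESeq2. In the difference of dox effects in iPSM, Junb (2.39 ± 0.22, edgeR adjusted p = 0.0020) and Atf3 (1.81 ± 0.30, edgeR adjusted p = 0.0321) passed as well. Summed, the list was at 134 and 183 CPM in clone 12 and at 133 and 202 CPM in clone 20, against 122 and 107 CPM and 137 and 115 CPM in ClockBmal1DN clones 7 and 19. The sum thus moved with Klf10, while the list's median in Clock/Bmal1 iPSM (−0.21) did not. The part of these genes in the Klf10 rise was not tested.

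Between untreated iPSM and ESC clones, the lists changed in both directions. Other KLF genes were mostly lower in iPSM (6 of 9, 1 higher), including the pluripotency factor Klf4 (−2.48 ± 0.28), Klf1 (−2.08 ± 0.49) and Klf16 (−1.76 ± 0.17), while Klf12 was higher (2.30 ± 0.21). The SP family had 4 of 9 higher and 2 lower, led by Sp8 (3.89 ± 0.41), Sp5 (3.71 ± 0.25), Sp7 (−3.40 ± 1.17) and Sp4 (2.75 ± 0.14). Cofactors had 2 of 10 higher and 3 lower, among them Kat2b (−1.89 ± 0.15), Sap30 (−1.64 ± 0.20), Crebbp (1.49 ± 0.23) and Sin3b (−0.81 ± 0.15). The background of 60.0% stands beside all of these counts.

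The TGF-beta list had 7 of 17 higher in iPSM and 6 lower. Smad7 (−1.86 ± 0.22) and Pmepa1 (−1.78 ± 0.29) were lower and Tgfbr1 (1.76 ± 0.14) was higher. Of the glucocorticoid-responsive genes 3 of 10 were higher and 5 lower, led by Zbtb16 (6.03 ± 0.41), Sgk1 (−3.79 ± 0.16), Ddit4 (3.06 ± 0.23) and Errfi1 (−1.62 ± 0.18).

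Genes with the pattern most like each KLF gene that rose were ranked among 12273 genes. The measure was Pearson's r of the log2 change with dox over 10 pairs of libraries, 1 per line in each cell type. For Klf10 the nearest were Junb (r = 0.985), Slc20a1 (0.966) and Irf2bp2 (0.966). For Klf15 they were Spry1 (0.964), Dusp2 (0.957) and Camkk1 (0.946). For Klf9 they were Foxn2 (0.957), Ptger4 (0.946) and Klf16 (0.945). Junb changed by log2 1.98 and 2.24 in the Clock/Bmal1 iPSM clones and by 1.23 and 0.89 in the ESC clones. Among the 8 genes themselves, r was highest between Klf10 and Klf15 (0.889), Klf9 and Klf10 (0.883) and Klf11 and Klf15 (0.882), and lowest between Klf6 and Klf9 (−0.66). The pairs share lines and sequencing, and these values are a description of 10 pairs without a test.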

How the data were processed

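The deposited tables hold, per the file headers, raw read counts over gene bodies and RPKM values made from them, 1 table per cell type. The counts end in a 0.5 step in 18.1% of values and the values deposited by the authors were therefore treated as estimated counts and rounded. The RPKM values deposited by the authors were used for levels between genes, and all were recomputed from the counts within 1.0%. The submitters' processing notes name bcl2fastq, STAR 2.7.2a, HOMER and mm10, and the labels' protocols name a stranded total RNA kit and paired-end reads.

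Genes passing edgeR's filter (22456 in ESC, 24758 in iPSM, 26638 in both) were tested with TMM scaling and the quasi-likelihood test in edgeR 4.0.16 (R 4.3.3), with Benjamini-Hochberg adjustment over all genes tested and a threshold of 0.05. CPM are TMM-scaled over all 20 libraries. DESeq2 1.42.0, other size factors, no filter, summed rows of repeated symbols, no control line, clone as a block and leaving out each library were the alternatives. On data simulated for Clock/Bmal1 against untreated, 2-fold changes were recovered in 17% (ESC) and 37% (iPSM) of genes and 4-fold changes in 79% and 92%, with 8 and 10 false calls.

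The untreated and treated library of a clone share its number in the titles and come from the same line, which pairs them. Deviations from group means correlated at 0.42 (Clock/Bmal1 ESC), −0.01 (ClockBmal1DN ESC), 0.19 (Clock/Bmal1 iPSM) and 0.09 (ClockBmal1DN iPSM).

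The members and lists were chosen with earlier results of these data known. Named were the 8 members, Clock, Arntl, Nr1d1 and Dbp, up to 4 called genes with the largest change per list (other KLF, SP family, KLF cofactors, TGF-beta signalling, glucocorticoid-responsive) and contrast, and the 3 genes most like each member called with dox. For 1 gene of the TGF-beta list the result is not reported here.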

Additional observations from a re-analysis of the deposited data

Results flagged for a closer look

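The dox effect on Klf15 in iPSM differed between Clock/Bmal1 and ClockBmal1DN clones by 1.87 on the log2 scale in a direct test of the difference (edgeR adjusted p = 0.0359). Without the control line the edgeR adjusted p was 0.0518. With 1 library left out the difference ran from 1.61 to 2.19, and the call was lost in most of those fits. Klf15 went up in both Clock/Bmal1 clones, while in ClockBmal1DN it went from 9.43 to 7.44 CPM in clone 7 and from 7.27 to 7.68 CPM in clone 19. The unequal transgene levels of the iPSM clones cannot be told apart from the type of transgene.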

How the results depend on the processing

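With clone as a replicate block, which uses the pairing of each clone's libraries, 5 KLF genes passed in Clock/Bmal1 iPSM in place of 3, and 2 in the difference of dox effects in iPSM in place of 1; it changed no other count of KLF genes. DESeq2 gave 5 and 3 there and 1 in Clock/Bmal1 ESC in place of 0. Without the low-count filter the counts were 5 and 3 in iPSM, 2 in Clock/Bmal1 ESC, and 1 each in the difference of dox effects in ESC and in the iPSM minus ESC effect in place of 0. With RLE size factors Clock/Bmal1 iPSM had 4 (Klf11 passed, adjusted p = 0.0482) and the iPSM difference 2, and without the control line the latter had 0. Klf11 between untreated iPSM and ESC was lost without the filter (0.44, adjusted p = 0.0539). Leaving out 1 library gave 2 to 6 in Clock/Bmal1 iPSM and 0 to 4 in the iPSM difference. The cause was not tested. Over all genes, Clock/Bmal1 ESC had 91 calls higher and 4 lower, 328 and 31 with DESeq2, 471 and 65 without the filter and 150 and 8 with the block. It fell to 9 and 7 higher without the untreated library of clone 1 or 7, and to 23 without the treated library of clone 1. Clock/Bmal1 iPSM had 246 and 7, against 356 and 19 with DESeq2, 356 and 20 with the block and 548 and 43 without the filter. It had 582 and 99 without the untreated library of clone 12, and 83 and 0 without the treated library of clone 20. The difference of dox effects in iPSM had 69 calls, all higher, against 153 with DESeq2, 131 with the block and 263 and 4 without the filter, and from 16 to 164 higher with 1 library left out. In ESC that difference had 13 calls higher, against 129 and 1 lower with DESeq2, 25 with the block and 393 and 15 without the filter.

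Among the settings that keep all clone libraries, the direction turned for 3 results. The Klf3 difference of dox effects in ESC (−0.0041) was 0.018 with RLE size factors and with DESeq2, 0.024 without the control line and 0.00095 with the block. Klf9 in Clock/Bmal1 ESC was 0.020 without the control line, and Klf7 between untreated iPSM and ESC was −0.012 without the filter. Log2 ranges that crossed 0 when 1 library was left out follow. In Clock/Bmal1 ESC they were Klf3 −0.041 to 0.17, Klf6 −0.18 to 0.57, Klf7 −0.0035 to 0.65, Klf9 −0.31 to 0.26. In ClockBmal1DN ESC they were Klf3 −0.027 to 0.18, Klf6 −0.28 to 0.11, Klf7 −0.15 to 0.22, Klf11 −0.055 to 0.41 and Klf13 −0.37 to 0.15. In Clock/Bmal1 iPSM the range was −0.38 to 0.10 for Klf7. In ClockBmal1DN iPSM they were Klf7 −0.30 to 0.081, Klf10 −0.47 to 0.081, Klf11 −0.18 to 0.12, Klf13 −0.35 to 0.032, Klf15 −0.33 to 0.064. For the difference of dox effects in ESC they were Klf3 −0.10 to 0.11, Klf6 −0.083 to 0.67, Klf7 −0.035 to 0.62. For that difference in iPSM they were Klf3 −0.26 to 0.10, Klf7 −0.27 to 0.20. For the Clock/Bmal1 effect in iPSM minus ESC they were Klf11 −0.0067 to 0.49, Klf13 −1.11 to 0.33 and Klf15 −0.21 to 0.79. In untreated iPSM against ESC it was −0.075 to 0.16 for Klf7. The lowest count behind a KLF value was 166 reads.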
